A study of Mus musculus with 30 samples.

Results

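Microarray levels of 8 genes described in the literature as direct targets of the microRNA miR-378 were compared between mouse myoblasts that overexpress miR-378 and their vector control. The genes were *Grb2*, *Ksr1*, *Sufu*, *Tob2*, *Med13*, *Crat*, *Galnt7* and *Npnt*. Every probe set whose platform annotation names exactly 1 of these symbols was taken, which gave 29 probe sets for the 8 genes, of 45101 probe sets and 18194 singly annotated genes on the array. The rule takes probe sets by symbol alone, but the genes were chosen with earlier results of these data known.

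C2C12 cells, a mouse myoblast line that forms myotubes in differentiation medium and turns towards bone-forming cells when BMP2 is added, were infected with a lentivirus carrying the miR-378 precursor (C2C12-pMirn378) or with its parent vector (C2C12-pMirn0). Both vectors also express the green marker copGFP, by which the transduced cells were sorted, so both lines share infection, marker and sorting. Each line was 1 sorted population, so an effect of miR-378 and a difference between the 2 populations that has another origin cannot be told apart. RNA was taken at d0 from undifferentiated cells. At d3 and d6 it came from cells in differentiation medium, either treated with 300 ng/ml BMP2 or left untreated. There were 3 arrays for each of the 10 groups. Differentiation medium replaced growth medium in treated and untreated cultures, so changes from d0 include this change of medium. Within a group the 3 arrays come from cultures of 1 transduced line, so the p-values below measure the spread between such cultures. These arrays were read for messenger RNA, and the level of miR-378 itself was not analysed here.

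MicroRNAs guide a silencing complex to partly complementary sites, mostly in the 3′ ends of messenger RNAs, where it blocks translation and often speeds decay of the message. A direct target that is regulated through decay would be lower in cells with more of the microRNA, whereas one regulated only through translation need not change on an mRNA array. For *Npnt*, the authors describe earlier work in which miR-378 raised production of the protein when *Npnt* with its 3′ end was overexpressed. In muscle, miR-378 is made from an intron of *Ppargc1b*, which encodes a coactivator of mitochondrial gene expression, and it is known for roles in muscle differentiation and energy metabolism.

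Values are intensities on a linear scale, given below per array or as the average expression value of a group with its SD over the 3 arrays. The median of all values was 76.461, and the medians of single arrays lay between 68.0 and 82.7, and a probe set is called dim where its mean log2 value over the 30 arrays lay under the log2 of the median of all values. The typical SD between replicate arrays was 0.145 on the log2 scale for bright probe sets, against 0.846 for dim ones. Of the 29 probe sets, 21 were bright and 8 dim (2 each of *Ksr1*, *Sufu* and *Med13*, 1 each of *Tob2* and *Crat*). The brightest probe set of each gene lay above the median on all 30 arrays, and its values are given unless another is named. All 6 muscle markers examined (*Myod1*, *Myf5*, *Des*, *Myog*, *Cdh15* and *Ckm*) lay at or above the median in all 10 groups, and of 11 hematopoietic and endothelial markers only *Csf1r* did so.

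Between the lines, few of the 29 probe sets were called as different. A difference was called where the adjusted p from the limma fit was under 0.005 and the log2 ratio of C2C12-pMirn378 over C2C12-pMirn0 exceeded 0.6 in size. At d0, 0 of 29 probe sets were called, where 0.763% of all probe sets were, and 9 of the 29 had an unadjusted p under 0.05. Without BMP2, 0 were called at d3 (0.419% of all, 0 of the 29 at an unadjusted p under 0.05) and 0 at d6 (0.16% of all, 3 of the 29). No share of all probe sets is given at the unadjusted level, so those counts cannot be set against the percentages, which are of calls. With BMP2, 1 was called at d3 (3.08% of all called, 1.61% as higher) and 1 at d6 (1.83% of all called, 0.993% as higher), and both were *Npnt* probe sets that were higher in C2C12-pMirn378 cells. Thus 0 of the 29 were called lower in any of the 5 comparisons.

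The direction of the small differences was mixed. Of the 29 log2 ratios, 14 were above 0 at d0, 14 and 15 at d3 and d6 without BMP2, and 20 at each day with BMP2. The median over the 8 brightest probe sets was 0.06 at d0, 0.02 and 0.03 without BMP2 at d3 and d6, and -0.0005 and 0.11 with BMP2, against -0.05, 0.02, 0.02, -0.01 and -0.02 for all genes in the same order. The arrays of the lines lay in separate ranges for 10, 1, 5, 7 and 8 of the 29 probe sets, that is at d0, d3 and d6 without BMP2, and d3 and d6 with BMP2. Separate ranges were found in 21, 14.6, 16.5, 27.4 and 24.9% of all probe sets in these comparisons. Outside *Npnt*, the smallest adjusted p was 0.0588 at d0, 0.767 and 0.694 without BMP2, and 0.0196 and 0.0239 with BMP2.

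**Figure D1:**
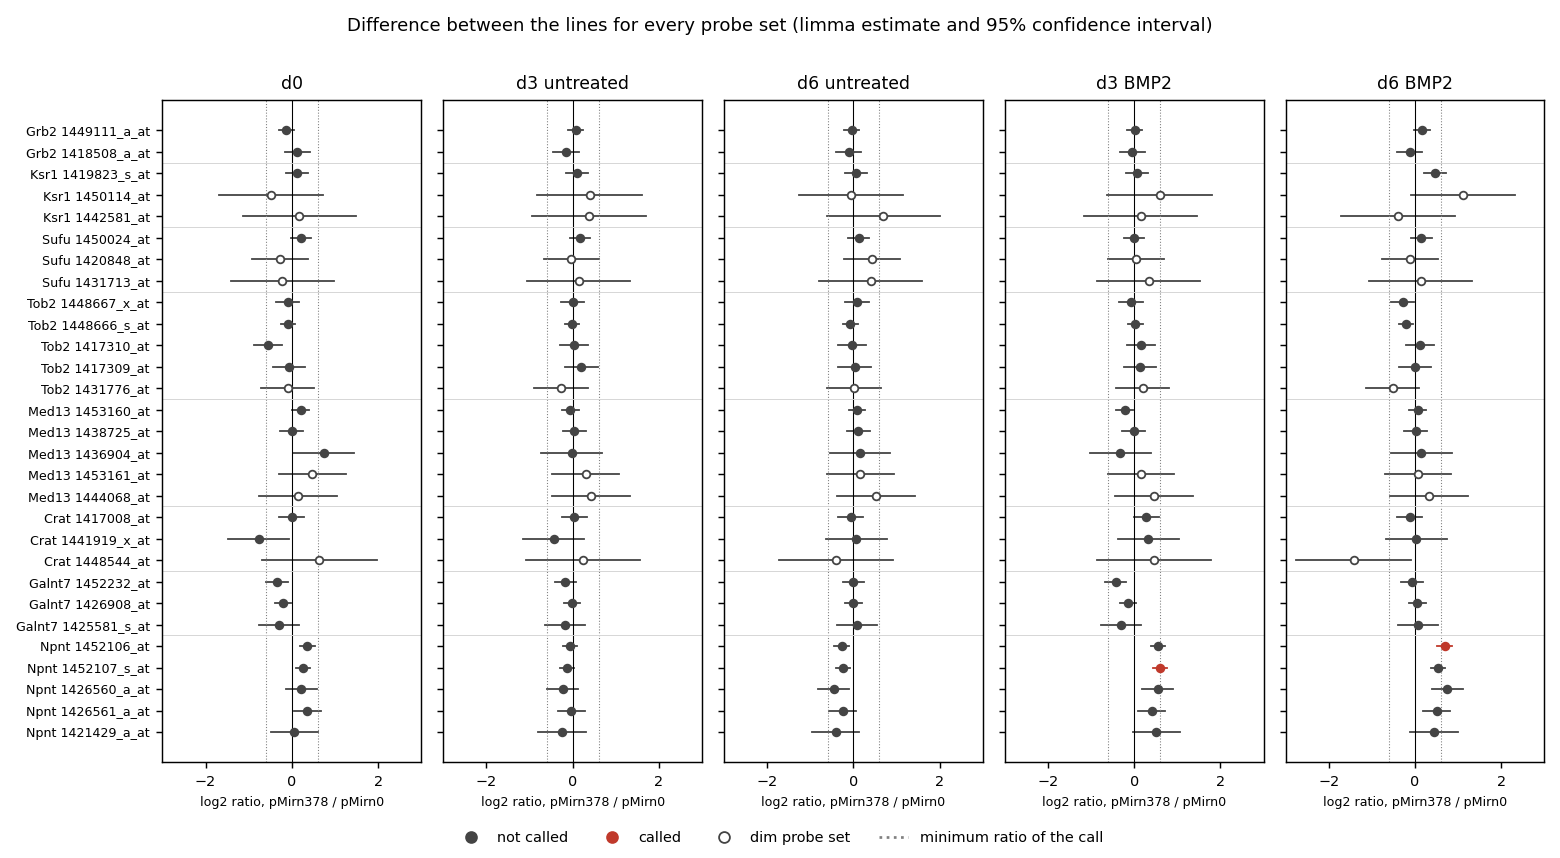
Log2 ratio of C2C12-pMirn378 over C2C12-pMirn0 cells with its 95% confidence interval for each of the 29 probe sets (rows) in the 5 comparisons (panels); open circles are dim probe sets, red ones are called, and dotted lines mark the minimum ratio of 0.6. The 2 called points are *Npnt* 1452107_s_at at d3 (0.60) and 1452106_at at d6 (0.69), both with BMP2, and the intervals of dim probe sets are much wider than those of bright ones.

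*Grb2* encodes the adaptor that couples activated growth factor receptors to the Ras exchange factor Sos. In both lines it was lower in BMP2-treated than in untreated cells at d3 and d6. In C2C12-pMirn378 cells without BMP2 the arrays gave 1254, 1563 and 1412 at d0, 2275, 2295 and 2410.4 at d3 and 2315, 2297 and 2379 at d6. The C2C12-pMirn0 arrays gave 1432, 1426 and 1772, 2136, 2149 and 2369, and 2442, 2483 and 2267 at the same days. The ranges of the lines overlapped at all 3 days. With BMP2, levels at d6 were 1127, 1082 and 1068 in C2C12-pMirn378 cells against 1032, 979.6 and 918 in C2C12-pMirn0 cells, a log2 ratio of 0.16 ± 0.09 (SE, adjusted p = 0.329) with ranges apart. The 95% intervals of the line differences of this probe set ran from -0.31 at their lowest, at d0, to 0.34 at their highest, at d6 with BMP2.

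Set against untreated cells of the same day, BMP2-treated cells had less *Grb2* in both lines. The averages at d6 were 1092 ± 30.6 with BMP2 and 2330.2 ± 43.1 without in C2C12-pMirn378 cells, and 977 ± 57.4 with and 2397 ± 114 without in C2C12-pMirn0 cells (SD, n = 3 each). As log2 ratios these are -1.09 ± 0.09 (SE, adjusted p = 4.96e-10) in C2C12-pMirn378 and -1.30 ± 0.09 (SE, adjusted p = 2.68e-11) in C2C12-pMirn0 cells. Its weaker probe set, 1418508_a_at, was not called in this comparison and averaged 612 ± 147 with BMP2 and 673 ± 110.5 without in C2C12-pMirn378 cells at d6, and over the 10 group means it correlated with the brighter one at r = 0.372. Over the 10 group means the genes most like *Grb2* were *Mamdc2* (r = 0.9938) and *Depp1* (r = 0.9928), of 10694 genes at or above the median level.

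*Ksr1* encodes a scaffold that holds Raf, MEK and ERK together. It was higher at d3 and d6 than at d0 in both lines and under both treatments. Without BMP2 it averaged 173 ± 10.1 at d0, 324 ± 50.5 at d3 and 319 ± 24.02 at d6 in C2C12-pMirn378 cells, and 159 ± 10.1, 303 ± 34.9 and 305 ± 43.7 in C2C12-pMirn0 cells. At d6 with BMP2 the arrays read 330.4, 384 and 369 in C2C12-pMirn378 cells and 246, 281 and 263 in C2C12-pMirn0 cells. These ranges did not overlap, and the log2 ratio of 0.45 ± 0.12 (SE, adjusted p = 0.0239) had the smallest adjusted p at that point among members other than *Npnt*, but lay under the minimum ratio and above the p threshold. In the other 4 comparisons the ranges of the lines overlapped, with log2 ratios between 0.07 and 0.12. The other probe sets were dim. 1450114_at gave 116, 110.3 and 137 in C2C12-pMirn378 cells against 28.4, 82.8 and 73.3 in C2C12-pMirn0 cells at d6 with BMP2, and 1442581_at gave a ratio of the opposite sign there (-0.39, 95% interval -1.71 to 0.92). The genes most like *Ksr1* over the 10 group means were *Prkab2* (r = 0.9804) and *Ifi27* (r = 0.9747).

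*Sufu* encodes the inhibitor that retains Gli transcription factors and so keeps hedgehog signaling off. Without BMP2 it was lower at d3 and d6 than at d0 in both lines, and with BMP2 no such change was called. Without BMP2 the averages were 553 ± 14.6, 366 ± 24.1 and 331 ± 52.7 at d0, d3 and d6 in C2C12-pMirn378 cells, and 477 ± 29.97, 327 ± 17.96 and 305 ± 47.4 in C2C12-pMirn0 cells. Undifferentiated C2C12-pMirn378 cells read 554, 568 and 538 against 499, 488 and 443 in C2C12-pMirn0 cells, so every C2C12-pMirn378 array lay above every control array at d0. That difference was 0.22 ± 0.11 (SE, adjusted p = 0.366) and was not called. With BMP2 the lines averaged 460.5 ± 11.6 in C2C12-pMirn378 and 464 ± 2.20 in C2C12-pMirn0 cells at d3 (95% interval of the log2 ratio -0.24 to 0.22). Both further probe sets were dim, and none of their 10 line differences had an adjusted p under 0.694. Its pattern was most like those of *St3gal1* (r = 0.9784) and *Arid1a* (r = 0.9781).

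*Tob2* encodes an antiproliferative protein of the BTG/Tob family that recruits the CCR4-NOT deadenylase. Its 5 probe sets did not move together, with correlations to the brightest one between 0.201 and 0.847 over the 10 group means. In undifferentiated cells, 1417310_at read 576, 527 and 596 in C2C12-pMirn378 cells and 615, 975 and 933 in C2C12-pMirn0 cells. The ranges were apart and the log2 ratio was -0.54 ± 0.16 (SE, adjusted p = 0.0588), but the first control array lay near the C2C12-pMirn378 level. Without that array the log2 ratio was -0.75 with an adjusted p of 0.00499, which meets the call. The 4 other probe sets gave -0.09, -0.09, -0.06 and -0.10 at d0, with adjusted p of at least 0.665 and overlapping ranges. At d6 with BMP2 the brightest, 1448667_x_at, averaged 1922 ± 369 in C2C12-pMirn378 cells and 2307 ± 87.8 in C2C12-pMirn0 cells (log2 ratio -0.28 ± 0.13 SE, adjusted p = 0.244), with 1 C2C12-pMirn378 array inside the control range. 1448666_s_at averaged 1113 ± 51.96 in C2C12-pMirn378 and 1291 ± 73.98 in C2C12-pMirn0 cells there, with ranges apart (log2 ratio -0.21 ± 0.08 SE, adjusted p = 0.119), while 1417310_at and 1417309_at gave log2 ratios of 0.11 and 0.00. The dim 1431776_at read 71.1, 73.7 and 53.5 in C2C12-pMirn378 and 72.98, 102 and 110.3 in C2C12-pMirn0 cells, with overlapping ranges (log2 ratio -0.52 ± 0.30 SE, adjusted p = 0.39). *Tlx2* (r = 0.9165) and *Sfswap* (r = 0.9048) followed the brightest probe set most closely.

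*Med13* encodes the subunit that joins the kinase module to the core Mediator complex of transcription. Its brightest probe set changed little: group averages ran from 938, in C2C12-pMirn0 cells at d6 without BMP2, to 1258, in undifferentiated C2C12-pMirn378 cells. It read 1188, 1200.4 and 1387 in C2C12-pMirn378 cells and 1080.1, 1029 and 1170.3 in C2C12-pMirn0 cells at d0, a log2 ratio of 0.20 ± 0.09 (SE, adjusted p = 0.299). At d3 with BMP2 the order was the reverse, with 942, 1046 and 976 in C2C12-pMirn378 cells and 1083, 1137 and 1219.9 in C2C12-pMirn0 cells (log2 ratio -0.21 ± 0.09 SE, adjusted p = 0.177). In both cases the ranges were apart and neither difference was called, and the interaction that compares d3 with BMP2 against d0 was -0.42 ± 0.13 (SE, adjusted p = 0.063). The largest ratio of a *Med13* probe set was that of 1436904_at at d0, which read 138, 143 and 214 in C2C12-pMirn378 and 107, 81.5 and 105 in C2C12-pMirn0 cells, with ranges apart and a log2 ratio of 0.74 ± 0.34 (SE, adjusted p = 0.287). The second probe set, 1438725_at, was lower with BMP2 than at d0 in both lines, at 351 ± 24.4, 201 ± 10.7 and 207 ± 20.3 for d0, d3 and d6 in C2C12-pMirn378 cells and 352 ± 25.2, 203 ± 21.2 and 205 ± 26.3 in C2C12-pMirn0 cells. The brightest probe set had no called change with BMP2, and the 2 correlated at r = -0.0179 over the 10 group means. *Tasor2* (r = 0.9372) and *Rbm4b* (r = 0.9321) were most like the brightest probe set.

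*Crat* encodes carnitine acetyltransferase, which exchanges acetyl groups between coenzyme A and carnitine in mitochondria. Without BMP2 it was higher at d3 and d6 than at d0 in both lines, and with BMP2 no such change was called. The averages without BMP2 were 304 ± 43.5 at d0, 516 ± 71.7 at d3 and 498 ± 70.03 at d6 in C2C12-pMirn378 cells, and 304 ± 25.7, 502 ± 28.99 and 519 ± 61.8 in C2C12-pMirn0 cells. At d0 the 95% interval of the line difference ran from -0.30 to 0.28. At d3 with BMP2 the arrays were 373, 363 and 374 in C2C12-pMirn378 cells and 305, 277 and 338 in C2C12-pMirn0 cells, apart but not called (0.27 ± 0.14 SE, adjusted p = 0.267), and at d6 with BMP2 they overlapped. The probe set 1441919_x_at read 177, 263 and 183 in C2C12-pMirn378 and 317, 328 and 406 in C2C12-pMirn0 cells at d0, with ranges apart and a log2 ratio of -0.77 ± 0.34 (SE, adjusted p = 0.264), where the other 2 gave -0.01 and 0.64. *Kctd9* (r = 0.9807) and *Chd3* (r = 0.9802) had the most similar group means.

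*Galnt7* encodes an enzyme that adds N-acetylgalactosamine to proteins already carrying this sugar. All 3 of its probe sets had log2 ratios under 0 at d0 and at d3 with and without BMP2, and none was called. The arrays at d3 with BMP2 read 524, 665 and 686 in C2C12-pMirn378 cells against 823, 871 and 821 in C2C12-pMirn0 cells, with ranges apart and a log2 ratio of -0.43 ± 0.12 (SE, adjusted p = 0.0196). 1426908_at and 1425581_s_at gave -0.14 ± 0.09 (SE, adjusted p = 0.442) and -0.31 ± 0.22 (SE, adjusted p = 0.498), with overlapping ranges. At d0 the brightest probe set read 1302, 1088 and 1107 in C2C12-pMirn378 cells and 1584, 1287 and 1592 in C2C12-pMirn0 cells, which overlapped by 1 array on each side (log2 ratio -0.35 ± 0.12 SE, adjusted p = 0.127). 1426908_at read 691, 686 and 678 in C2C12-pMirn378 and 753, 829 and 784 in C2C12-pMirn0 cells at d0, with ranges apart (log2 ratio -0.20 ± 0.09 SE, adjusted p = 0.283). At d6 the log2 ratios lay between -0.06 and 0.09 for the 3 probe sets with and without BMP2.

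BMP2-treated cells had less *Galnt7* than untreated cells in both lines. At d3 the averages were 625 ± 88.2 with BMP2 and 1199 ± 92.4 without in C2C12-pMirn378 cells, and 838 ± 28.3 with and 1349 ± 149.9 without in C2C12-pMirn0 cells. The log2 ratios of -0.95 ± 0.12 (SE, adjusted p = 9.74e-07) and -0.68 ± 0.12 (SE, adjusted p = 9.01e-05) were both called, and their difference was not (-0.27 ± 0.17 SE, adjusted p = 0.537). Its 3 probe sets rose and fell together over the 10 group means (r = 0.946 and 0.953 with the brightest). The genes most like it were *Cd53* (r = 0.9892) and *Metap1* (r = 0.9698).

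**Figure D2:**
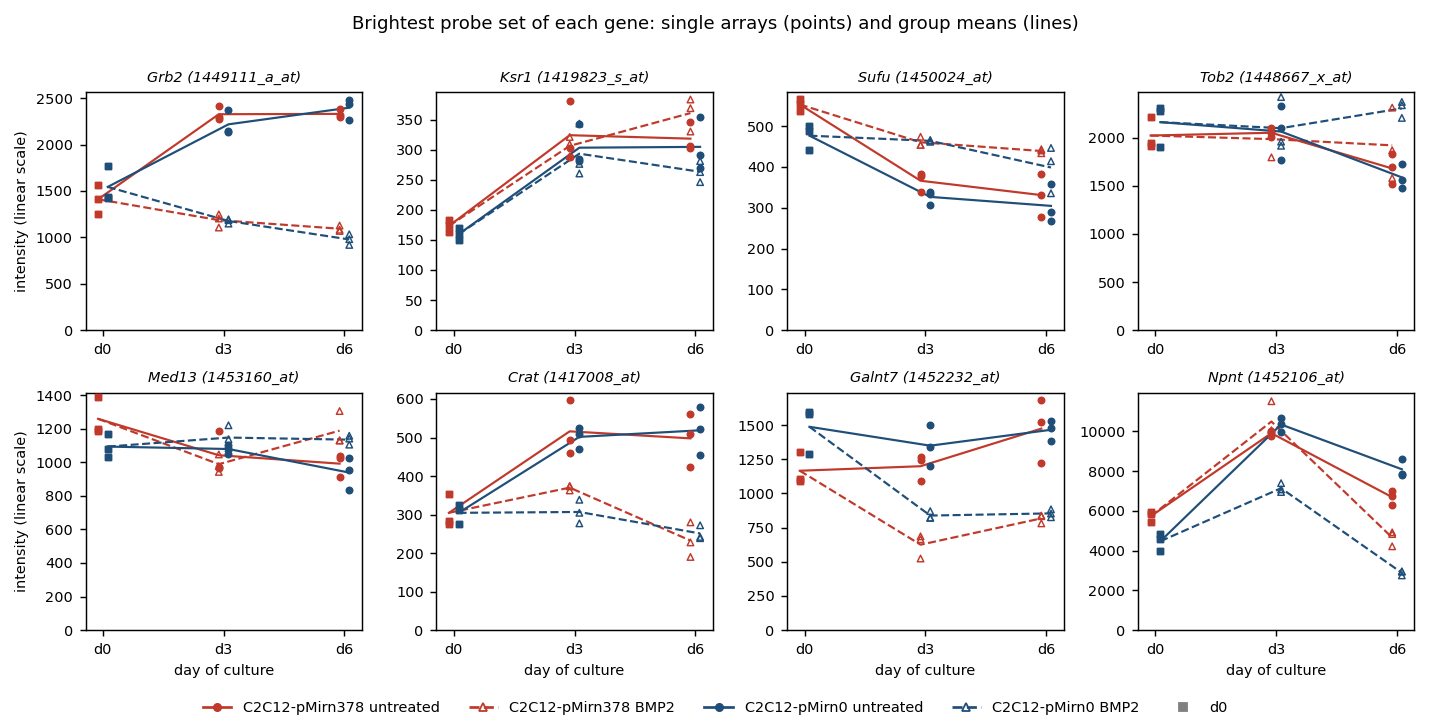
Intensity on the linear scale for the brightest probe set of each gene at d0, d3 and d6; points are single arrays, lines join group means, red is C2C12-pMirn378, blue C2C12-pMirn0, solid lines untreated and dashed lines BMP2-treated cells. For *Grb2*, *Crat* and *Galnt7* the dashed lines lie below the solid ones in both lines at both days, and only for *Npnt* do the dashed lines of the 2 cell lines separate clearly at d3 and d6.

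*Npnt* encodes nephronectin, a matrix protein that binds integrin α8β1 and is known to promote osteoblast differentiation in mouse cells. It was the brightest member, with group averages between 2882 and 10490.5, and it was higher at d3 than at d0 in both lines with and without BMP2. With BMP2 C2C12-pMirn378 cells had more of it at both days than C2C12-pMirn0 cells, with 1 of 5 probe sets called at each day. The 5 probe sets moved alike, with correlations of 0.967 to 0.995 to the brightest one over the 10 group means.

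RefSeq (GRCm38.p6) gives 2 starts for *Npnt* among 7 members with a promoter window, and both windows are printed, from 250 bases before to 50 after the start, because it is the only member with a called difference between the lines. Capitals mark CANNTG, the core of the E-box that myogenic factors such as Myod1 bind, which reads the same on both strands and occurs in 72.3% of 32851 windows of this length.
*Npnt* start 1, chr3:132950242-132950541, minus strand: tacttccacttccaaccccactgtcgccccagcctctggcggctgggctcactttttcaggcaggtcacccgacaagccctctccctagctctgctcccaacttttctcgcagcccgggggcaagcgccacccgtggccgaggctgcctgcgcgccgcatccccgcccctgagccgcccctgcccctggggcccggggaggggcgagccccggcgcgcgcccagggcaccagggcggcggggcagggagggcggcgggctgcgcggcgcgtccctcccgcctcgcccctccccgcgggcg
*Npnt* start 2, chr3:132949765-132950064, minus strand: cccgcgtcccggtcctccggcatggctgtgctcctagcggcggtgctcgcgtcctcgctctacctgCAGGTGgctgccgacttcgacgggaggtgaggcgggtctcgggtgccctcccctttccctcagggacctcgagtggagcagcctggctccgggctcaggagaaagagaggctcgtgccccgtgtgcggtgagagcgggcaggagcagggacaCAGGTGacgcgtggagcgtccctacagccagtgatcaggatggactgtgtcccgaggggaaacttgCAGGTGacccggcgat
The first window holds 0 matches and the second 3, all of the form CAGGTG, and a match is only a description of these letters. By its coordinates on the minus strand, the second window lies wholly downstream of start 1.

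At d3 with BMP2, 1452106_at read 11510.2, 10054 and 9907 in C2C12-pMirn378 cells and 7391, 6945 and 7076 in C2C12-pMirn0 cells. 1452107_s_at read 9269, 8947 and 8839 in C2C12-pMirn378 cells and 5540.1, 6518 and 5816 in C2C12-pMirn0 cells. Every C2C12-pMirn378 array lay above every control array on both. The log2 ratio was 0.55 ± 0.08 (SE, adjusted p = 4e-05) for 1452106_at and 0.60 ± 0.08 (SE, adjusted p = 9.85e-06) for 1452107_s_at, of which the second just passed the minimum ratio and the first fell short of it. The other 3 probe sets gave 0.55, 0.41 and 0.51, with adjusted p between 0.0401 and 0.273 and overlapping ranges for the last. The call at d3 was lost when the first or the third C2C12-pMirn0 array or the first C2C12-pMirn378 array of that point was left out, where the log2 ratio was 0.55, 0.59 and 0.58 with adjusted p between 0.000109 and 0.000161.

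By d6 with BMP2, *Npnt* had fallen in both lines, with log2 ratios of d6 over d3 of -1.17 ± 0.08 (SE, adjusted p = 3.1e-10) in C2C12-pMirn378 and -1.31 ± 0.08 (SE, adjusted p = 3.25e-10) in C2C12-pMirn0 cells. 1452106_at read 4918, 4215 and 4831 in C2C12-pMirn378 cells and 2952, 2752 and 2942 in C2C12-pMirn0 cells. This gave a called log2 ratio, 0.69 ± 0.08 (SE, adjusted p = 4.24e-06). 1452107_s_at read 3552, 3533 and 4146 in C2C12-pMirn378 and 2598, 2395 and 2721 in C2C12-pMirn0 cells, with 0.54 ± 0.08 (SE, adjusted p = 6.43e-05), under the minimum ratio. Ranges were again apart for both. The ratio was largest for 1426560_a_at, at 0.75 ± 0.17 (SE, adjusted p = 0.00663), whose p missed the threshold but passed it without the second C2C12-pMirn378 array (0.89, adjusted p = 0.00325), and the other 2 gave 0.50 and 0.45. Thus all 5 ratios were above 0 at both days with BMP2.

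Without BMP2 all 5 ratios were under 0 at both days and no difference was called. At d6 untreated, 1452106_at read 6726, 7022 and 6311 in C2C12-pMirn378 cells and 8593, 7803 and 7872 in C2C12-pMirn0 cells, with ranges apart and a log2 ratio of -0.27 ± 0.08 (SE, adjusted p = 0.132). The 5 ratios lay between -0.46 and -0.24 at d6 and between -0.25 and -0.03 at d3, where the ranges of all 5 overlapped. In undifferentiated cells *Npnt* was again higher in C2C12-pMirn378 cells, at 5820.0, 5426 and 5928 against 4846, 3972 and 4595 in C2C12-pMirn0 cells (log2 ratio 0.36 ± 0.08 SE, adjusted p = 0.0129), without a call. The closest group means to those of *Npnt* were found for *Map4* (r = 0.9723) and *Snx11* (r = 0.967).

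**Figure D3:**
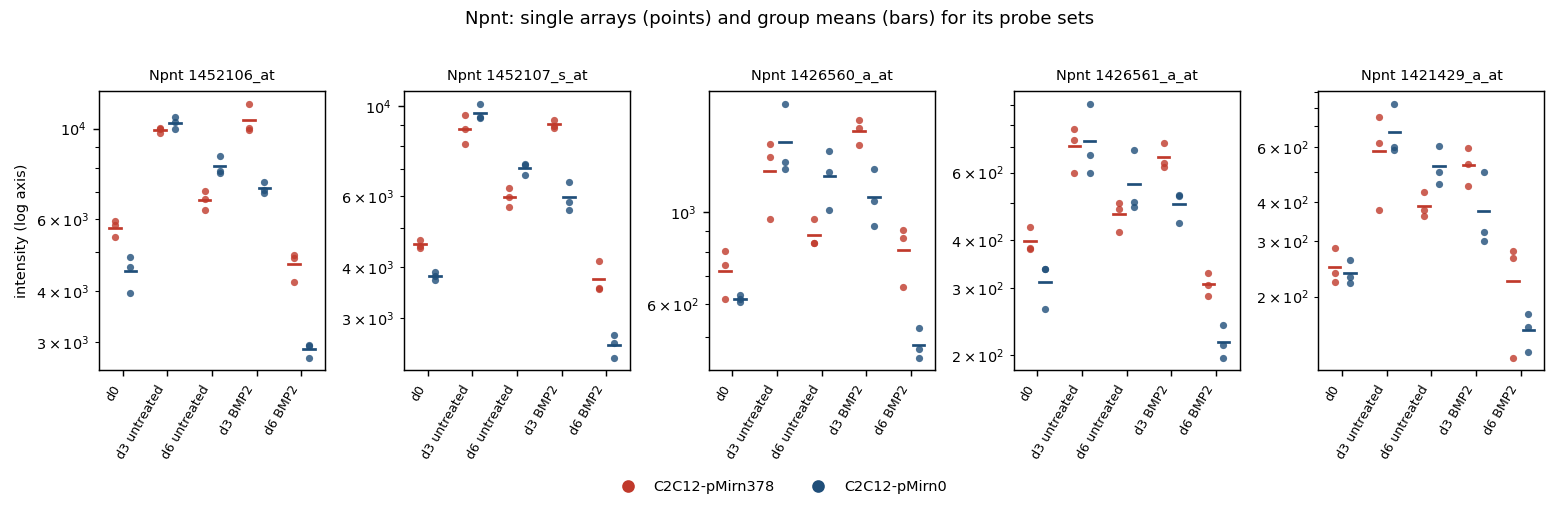
Intensity of the 5 *Npnt* probe sets on a log axis in the 5 conditions, with C2C12-pMirn378 (red) left of C2C12-pMirn0 (blue); points are single arrays and bars group means. The red points lie above the blue ones at d3 and d6 with BMP2, apart from overlaps in 1421429_a_at, and below or among them at d3 and d6 without BMP2.

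The interaction of line and BMP2 tests whether the difference between the lines depends on BMP2. At d3, 2 of 29 member probe sets were called, where 1.24% of all probe sets were, and at d6 it was 3 of 29, where 1.27% were. All 5 calls were of *Npnt*. The interaction of 1452106_at was 0.61 ± 0.11 (SE, adjusted p = 0.002) at d3 and 0.96 ± 0.11 (SE, adjusted p = 1.3e-05) at d6, that of 1452107_s_at 0.74 ± 0.11 (SE, adjusted p = 0.000259) and 0.78 ± 0.11 (SE, adjusted p = 0.000122), and that of 1426560_a_at at d6 1.21 ± 0.24 (SE, adjusted p = 0.00411). The d6 calls of the 2 brightest probe sets held when any single array was left out. The d3 call of 1452106_at held only without the second untreated or the first BMP2-treated C2C12-pMirn0 array or the second or the third BMP2-treated C2C12-pMirn378 array, and was lost without each of the other 8 of the 12 arrays, with log2 values between 0.55 and 0.62 and adjusted p between 0.00525 and 0.00745, while that of 1426560_a_at at d6 held only without the third untreated C2C12-pMirn0 or the second BMP2-treated C2C12-pMirn378 array, and was lost without each of the other 10, with log2 values between 1.10 and 1.28 and adjusted p between 0.00601 and 0.0164.

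The interactions of line and time, which set the line difference at a later point against that at d0, gave few calls. Without BMP2 there were 0 of 29 at d3 (0.357% of all called) and 1 at d6 (0.49% of all), and with BMP2 there were 0 at d3 (2.57% of all) and 0 at d6 (1.58% of all). At an unadjusted p under 0.05 the numbers were 3 and 5 without BMP2 and 5 and 6 with it, with no share of all probe sets at that level to set beside them. The call was *Npnt* 1452106_at, with -0.64 ± 0.11 (SE, adjusted p = 0.00319), since its line difference was above 0 at d0 and under 0 at d6. It held without the first d0 array of C2C12-pMirn0 or the second d0 or d6 array of C2C12-pMirn378, and was lost without each of the other 9 of the 12 arrays, with log2 values between -0.55 and -0.66 and adjusted p between 0.0058 and 0.0138.

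Calls with time outnumbered those between the lines, and this held over all probe sets as well as among the 29 of the members. To be called, a change with time needed an adjusted p under 0.005 for d6 against d0, and a size over 0.6 for the log2 change from d0 averaged over d3 and d6. In C2C12-pMirn378 cells without BMP2, 5 of 29 probe sets were higher, of *Grb2*, *Ksr1*, *Crat* and *Npnt*, and 1 was lower, of *Sufu* (9.77% of all higher and 10.3% lower). In C2C12-pMirn0 cells without BMP2, 8 were higher, of *Ksr1*, *Crat* and *Npnt*, and 3 lower, of *Sufu* and *Tob2* (8.7% of all higher and 10.3% lower). Several of these calls depended on the setting. In C2C12-pMirn0 cells *Sufu*, whose mean log2 change of -0.60 just passed the minimum, was not called with array weights, quantile normalization, median scaling or the offset of 16. Under median scaling *Tob2* was not called in C2C12-pMirn0 cells but was in C2C12-pMirn378 cells, *Grb2* was called in both lines, and *Npnt* was not called in C2C12-pMirn378 cells. With BMP2, 1 probe set of *Ksr1* was higher and 3 of *Med13* and *Galnt7* were lower in each line, where 10.2% of all were higher and 9.78% lower in C2C12-pMirn378 cells and 9.08% higher and 8.52% lower in C2C12-pMirn0 cells. All these shares of members are of 29 probe sets of only 8 genes, in which *Npnt* alone has 5.

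For members called in both lines, the sizes of the changes with time were as follows. *Ksr1* had mean log2 changes of 0.89 without and 0.94 with BMP2 in C2C12-pMirn378 cells, and of 0.93 without and 0.80 with BMP2 in C2C12-pMirn0 cells. For *Crat* without BMP2 the mean change was 0.73 in C2C12-pMirn378 and 0.74 in C2C12-pMirn0 cells, and for *Sufu* it was -0.68 and -0.60. *Galnt7* with BMP2 had -0.71 in C2C12-pMirn378 and -0.81 in C2C12-pMirn0 cells. *Grb2* without BMP2 was called in C2C12-pMirn378 cells alone, but the d6 over d0 log2 ratios were 0.73 ± 0.09 (SE, adjusted p = 2.69e-07) in C2C12-pMirn378 and 0.64 ± 0.09 (SE, adjusted p = 1.77e-06) in C2C12-pMirn0 cells, and their difference was 0.09 ± 0.12 (SE, adjusted p = 0.812). *Npnt* 1452106_at averaged 5725 ± 264, 9905 ± 135 and 6686 ± 357 at d0, d3 and d6 without BMP2 in C2C12-pMirn378 cells, and 4471 ± 450.2, 10341 ± 355 and 8089 ± 438 in C2C12-pMirn0 cells, so the level at d3 was the highest in both. A dim probe set of *Crat*, 1448544_at, also rose without BMP2, with averages of 14.5, 89.3 and 77.9 in C2C12-pMirn378 cells and 10.4, 75.3 and 102 in C2C12-pMirn0 cells.

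Against untreated cells of the same day, several members were lower with BMP2 and 0 were called higher. In C2C12-pMirn378 cells 4 of 29 probe sets were lower and 0 higher at d3 (8.11% of all lower, 9.92% higher), of *Grb2* and *Galnt7*, and 7 were lower and 0 higher at d6 (8.71% of all in each direction). In C2C12-pMirn0 cells 5 were lower and 0 higher at d3 (6.75% of all lower, 8.63% higher) and 9 lower and 0 higher at d6 (8.24% of all lower, 9.66% higher). In these 4 comparisons 9, 17, 15 and 17 of the 29 had an unadjusted p under 0.05, with no share of all probe sets at that level to set beside them. Apart from d3 in C2C12-pMirn378 cells, the calls fell on the same 4 genes, *Grb2*, *Crat*, *Galnt7* and *Npnt*. For *Npnt* 1452106_at the log2 ratio of BMP2-treated over untreated cells was 0.08 ± 0.08 (SE, adjusted p = 0.517) at d3 and -0.52 ± 0.08 (SE, adjusted p = 1.35e-05) at d6 in C2C12-pMirn378 cells, and -0.53 ± 0.08 (SE, adjusted p = 1.17e-05) and -1.49 ± 0.08 (SE, adjusted p = 8.02e-13) in C2C12-pMirn0 cells. *Crat* had -1.11 ± 0.14 (SE, adjusted p = 9.61e-07) at d6 in C2C12-pMirn378 cells and -1.04 ± 0.14 (SE, adjusted p = 2.21e-06) in C2C12-pMirn0 cells. *Sufu* moved the other way, by 0.33 and 0.42 at d3 and d6 in C2C12-pMirn378 and 0.51 and 0.39 in C2C12-pMirn0 cells, all under the minimum ratio. The highest ratio of a brightest probe set in C2C12-pMirn0 cells at d6 was 0.54, for *Tob2* 1448667_x_at, also under the minimum. It averaged 2307 ± 87.8 with BMP2 and 1589 ± 131 without, against 1922 ± 369 and 1682 ± 155 in C2C12-pMirn378 cells.

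Some of these calls turned on single arrays. In C2C12-pMirn378 cells at d6, the call of the dim *Crat* probe set 1448544_at was lost without any untreated array or the second or the third BMP2-treated array, with log2 ratios between -1.96 and -2.56 and adjusted p between 0.00941 and 0.0358. That of *Npnt* 1426561_a_at was lost without the first or the third untreated array or any BMP2-treated array, with log2 ratios between -0.55 and -0.66 and adjusted p between 0.00512 and 0.0171. *Galnt7* 1426908_at at d3 in C2C12-pMirn378 cells fell to -0.59 without the third BMP2-treated array, and 1425581_s_at at d3 in C2C12-pMirn0 cells lost its call without the first untreated or the second or the third BMP2-treated array (-0.78, -0.85 and -0.86). Calls were gained by *Med13* 1438725_at, at -0.60 to -0.69, without the second or the third untreated or the second BMP2-treated array of C2C12-pMirn378 cells at d3, the second untreated array at d6, or the third BMP2-treated C2C12-pMirn0 array at d3. Further gains were *Galnt7* 1425581_s_at in C2C12-pMirn378 cells at d6 without the second untreated array (-0.92), *Npnt* 1426561_a_at and 1421429_a_at in C2C12-pMirn0 cells at d3 without the third untreated or the first BMP2-treated array (-0.66 and -1.09), and *Tob2* 1448667_x_at in C2C12-pMirn0 cells at d6 without the third untreated array (0.60).

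**Figure D4:**
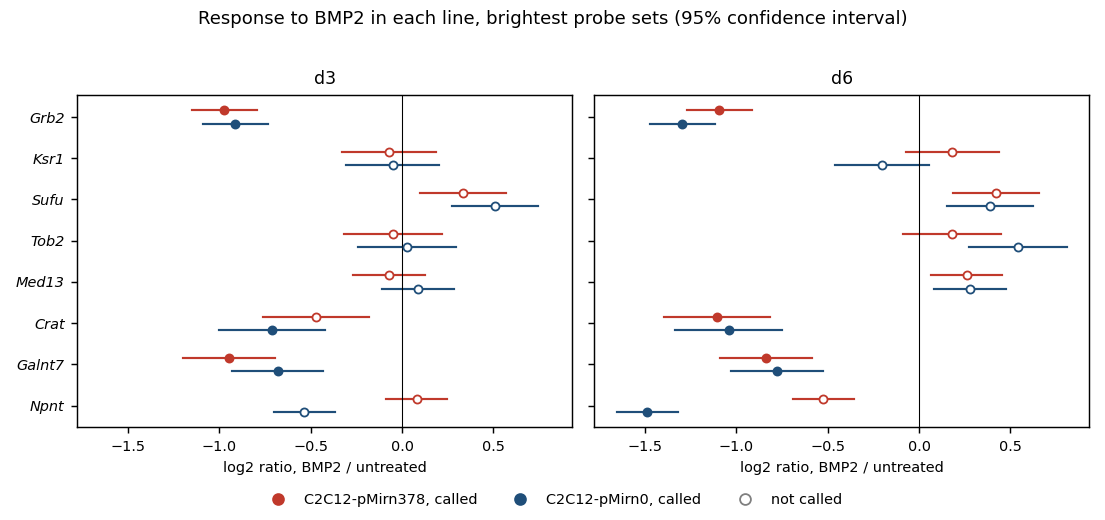
Log2 ratio of BMP2-treated over untreated cells with its 95% confidence interval for the brightest probe set of each gene at d3 (left) and d6 (right), with C2C12-pMirn378 (red) above C2C12-pMirn0 (blue); filled points are called. *Npnt* is the gene whose intervals in the 2 lines lie apart at both days, around 0.08 against -0.53 at d3 and -0.52 against -1.49 at d6.

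Marker sums of cell state also differed between the lines, both where *Npnt* was called and where it was not. The summed intensity of 4 osteoblast markers (*Sp7*, *Alpl*, *Ibsp* and *Dlx5*) ranged from 6344 to 7065 at d3 and from 6020 to 7705 at d6 over the BMP2-treated C2C12-pMirn378 arrays, against 3409 to 3595 and 2735 to 3139 over the C2C12-pMirn0 arrays, and it stayed under 270 on all other arrays. Of these 4 markers, *Ibsp* lay under the median of all values in all 10 groups. The sum of the 6 muscle markers was 9819 to 11030 at d3 and 8171 to 8874 at d6 with BMP2 in C2C12-pMirn378 cells, against 13440 to 14330 and 11970 to 12390 in C2C12-pMirn0 cells. Without BMP2 the muscle sum was 21340 to 22890 at d0, 50260 to 53170 at d3 and 37300 to 41000 at d6 in C2C12-pMirn378 cells, against 19940 to 21070, 46820 to 50820 and 43150 to 46580 in C2C12-pMirn0 cells. It was thus higher at d0 and lower at d6 in C2C12-pMirn378 cells with ranges apart, and *Npnt* 1452106_at had the same signs there. At d3 without BMP2 both ends of its range were higher in C2C12-pMirn378 cells, with overlap, while the *Npnt* ratios were under 0. With BMP2 the osteoblast sum and *Npnt* were higher and the muscle sum lower in C2C12-pMirn378 cells at both days. At d0 *Des* (8146 against 6695), *Myod1*, *Myf5* and *Cdh15* were higher in C2C12-pMirn378 cells, but *Myog* (3324 against 4090) and *Ckm* (385.2 against 483.8) were lower. The 3 fat cell markers summed to 1569 to 1728 at d3 and 2597 to 2717 at d6 with BMP2 in C2C12-pMirn378 cells, against 2559 to 3035 and 3994 to 4190 in C2C12-pMirn0 cells, nearly all of it from *Fabp4*, as *Adipoq* and *Lep* stayed under 20. Fewer cells of a type and less RNA per cell cannot be told apart in such bulk samples, and the part of these shifts in the *Npnt* difference was not tested.

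Around the members, genes of the same pathways were read from lists of 100 genes, of which 90 were measured. Between the lines 0 were higher and 1 lower at d0, 0 were called at d3 and d6 without BMP2, 2 were higher and 3 lower at d3 with BMP2, and 1 was higher and 1 lower at d6 with BMP2. Over all genes, 0.115% were higher and 0.709% lower at d0, 2.5% higher and 1.87% lower at d3 with BMP2, and 1.54% higher and 1.31% lower at d6 with BMP2. In the Ras-MAPK list, around *Grb2* and *Ksr1*, 3 of 19 measured genes were lower at d3 with BMP2, and 0 were called at d6 with BMP2. *Dusp6*, a phosphatase of ERK, averaged 419 ± 48.7 in C2C12-pMirn378 and 646 ± 48.3 in C2C12-pMirn0 cells, a log2 ratio of -0.63 ± 0.08 (SE, adjusted p = 7.52e-06). *Etv5*, an Ets transcription factor, averaged 335 ± 24.2 in C2C12-pMirn378 and 631 ± 80.6 in C2C12-pMirn0 cells, with -0.91 ± 0.11 (SE, adjusted p = 2.17e-06). *Spry4*, a feedback inhibitor of receptor signaling, averaged 14.96 ± 10.1 in C2C12-pMirn378 and 80.1 ± 3.69 in C2C12-pMirn0 cells, with -2.72 ± 0.41 (SE, adjusted p = 5.47e-05), but its level was dim in C2C12-pMirn378 cells and the call was lost when values under 50 were set to 50 (-0.68, adjusted p = 0.103, within a range of 4.21e-06 to 0.106 over 15 alternatives). At d6 with BMP2 the log2 ratios were 0.30 ± 0.08 (SE, adjusted p = 0.0203) for *Dusp6*, -0.04 ± 0.11 (SE, adjusted p = 0.924) for *Etv5* and -0.52 ± 0.41 (SE, adjusted p = 0.577) for *Spry4*. The *Dusp6* call at d3 was lost without the third C2C12-pMirn0 or the second C2C12-pMirn378 array (-0.57 and -0.55).

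In the list of O-glycosylation enzymes, around *Galnt7*, 2 of 19 were higher at d3 with BMP2, while *Galnt7* itself had a negative ratio there. *Galnt1*, an enzyme that starts such chains, averaged 4503 ± 108 in C2C12-pMirn378 and 2885 ± 164 in C2C12-pMirn0 cells, with 0.64 ± 0.07 (SE, adjusted p = 1.66e-06), and fell under the minimum ratio without the first C2C12-pMirn0 array (0.60). *Galnt18*, of the same family, averaged 309 ± 15.6 in C2C12-pMirn378 and 132 ± 14.2 in C2C12-pMirn0 cells, with 1.24 ± 0.13 (SE, adjusted p = 4.96e-07), and at d6 149 ± 18.6 in C2C12-pMirn378 and 93.7 ± 14.1 in C2C12-pMirn0 cells, with 0.67 ± 0.13 (SE, adjusted p = 0.00149). The d6 call was lost without the second or the third C2C12-pMirn0 array or the first or second C2C12-pMirn378 array, with log2 ratios between 0.55 and 0.69. Of 15 hedgehog genes around *Sufu*, *Gas1*, a coreceptor of the pathway, was lower at d0, at 3171 ± 579.6 in C2C12-pMirn378 and 5239.6 ± 331 in C2C12-pMirn0 cells (-0.74 ± 0.11 SE, adjusted p = 0.000242). The lists around *Tob2* (10 genes measured), *Crat* (6), *Med13* (6) and *Npnt* (10) held 0 calls between the lines. Among the *Npnt* receptors, *Itgb1* was bright, with group averages between 5246 and 6423, whereas *Itga8* did not exceed 44.95, under the median of all values.

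Of 6 further genes described as miR-378 targets, 4 were measured and 0 were called between the lines. *Msc*, a repressor of myogenic factors, averaged 431 ± 30.6, 145 ± 53.2 and 140.4 ± 6.07 at d0, d3 and d6 without BMP2 in C2C12-pMirn378 cells, and 346 ± 44.6, 99.6 ± 24.5 and 89.1 ± 9.56 in C2C12-pMirn0 cells. With BMP2 its averages lay under 15 in both lines. The host gene *Ppargc1b* was lower in C2C12-pMirn378 cells at d6 with BMP2, at 171 ± 8.20 against 278 ± 24.3 in C2C12-pMirn0 cells (-0.70 ± 0.13 SE, adjusted p = 0.00153). That call was lost without the first or second C2C12-pMirn0 array or the first or the third C2C12-pMirn378 array, with log2 ratios between -0.63 and -0.72 and adjusted p between 0.00579 and 0.0134.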

How the data were processed

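The series holds 30 Affymetrix Mouse 430 2.0 arrays, 3 for each of 10 groups. The authors deposited probe set intensities on a linear scale, made in R 2.4.1 with RMA and quantile normalization according to their notes. The values ran from 0.0561 to 40201, 5512 of them (0.407%) lay under 1, and array medians differed, so how those steps led to this scale stays unknown. Gene names came from the platform annotation (34958 probe sets with 1 symbol, 932 with several, 9211 with none).

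The log2 intensities were fitted as 10 group means with limma 3.58.1 in R 4.3.3 (moderated test, Benjamini-Hochberg adjustment over 45101 probe sets, 95% intervals). Calls needed a log2 ratio over 0.6 in size together with an adjusted p under 0.005. Named are the members, the pathway genes called between the lines, and for each member the 2 genes with the highest correlation of group means. Members and lists were chosen with earlier results of these data known. On simulated data for the line difference at d6 with BMP2, changes were given only to bright probe sets. Of these, 80 of 100 changed by a log2 of 1 and 95 of 100 changed by a log2 of 2 were called. Among the unchanged probe sets of the 45101 there were 0 false calls. Recovery was not simulated for dim probe sets or for changes near the minimum ratio of 0.6. Alternatives were the replicate block, moderation, array weights, normalization, offset, floor, filter, thresholds, a fit of the compared groups alone and leaving out each array. The number of arrays limits the precision.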

Additional observations from a re-analysis of the deposited data

Results flagged for a closer look

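The response of *Npnt* to BMP2 differed between the lines, as C2C12-pMirn378 over C2C12-pMirn0. The test of the difference between the responses, on the log2 scale, gave 0.61 for 1452106_at and 0.74 for 1452107_s_at at d3, and 0.96, 0.78 and 1.21 for 1452106_at, 1452107_s_at and 1426560_a_at at d6. In the same gene the difference between the lines at d6 without BMP2 departed from that at d0 by -0.64 for 1452106_at. The osteoblast, muscle and fat cell marker sums also differed between the lines with BMP2. Without BMP2 the muscle sum was higher in C2C12-pMirn378 cells at d0 (21340 to 22890, against 19940 to 21070 in C2C12-pMirn0 cells) and lower at d6 (37300 to 41000, against 43150 to 46580). At d3 without BMP2 its ranges overlapped. With BMP2 the osteoblast sum and *Npnt* were higher and the muscle sum lower in C2C12-pMirn378 cells at both days. Members of the muscle sum went both ways at d0, with *Des* higher (8146 against 6695) and *Myog* lower (3324 against 4090) in C2C12-pMirn378 cells. The part of the marker sums in the *Npnt* values was not tested.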

How the results depend on the processing

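Of 99 log2 ratios recomputed under the alternatives, 1371 of 1521 values kept their direction and side of the threshold, 104 lost the call, 6 gained it and 40 changed sign. Fitting only the groups of a comparison, which leaves fewer arrays, gave 0 called member probe sets between the lines on either day with BMP2, 0 for both interactions with BMP2 and for that with time at d6, 1 for the BMP2 response in C2C12-pMirn378 cells at d3 and at d6 and 1 in C2C12-pMirn0 cells at d3, and 7 with time in untreated C2C12-pMirn0 cells. An adjusted p under 0.05 with no minimum ratio gave 1 between the lines at d0, with BMP2 4 at d3 and 5 at d6, 7 and 14 for the BMP2 response of C2C12-pMirn378 cells and 11 and 15 for that of C2C12-pMirn0 cells, 2 for the interaction with time at d6 without BMP2, and 11 with time in untreated C2C12-pMirn378 cells and in BMP2-treated cells of both lines. No share of all probe sets is given under this looser rule, so whether these counts exceed it cannot be told. At d3 with BMP2 array weights and an offset of 16 each gave 0 between the lines, and at d6 the count was 2 with array weights, with trend and robust estimation, with values under 50 set to 50 and with the filter on dim probe sets. Whether the replicate numbers pair the samples is not stated in the labels, and the main fit does not use them. Deviations of same-numbered arrays of the 2 lines correlated at -0.0651 to 0.201 (median 0.0629, 3 of 15 over 0.1). For differently numbered arrays the correlations were -0.219 to 0.178 (median -0.0149, 2 of 30 over 0.1), so same-numbered arrays were slightly more alike. A fit with the replicate block gave 2 line differences called for BMP2-treated cells at d6 and moved no other count by over 1.5 times. Median scaling gave 3 for the BMP2 response of C2C12-pMirn378 cells at d6 and 1 for the interaction with BMP2 at d3, where array weights also gave 1, and quantile normalization gave 8 for the response of C2C12-pMirn0 cells at d3 and 0 for the interaction with time at d6. The cause was not tested. Leaving out 1 array at a time, the counts between the lines ran from 0 to 1 at d0, 0 to 1 at d3 with BMP2 and 1 to 2 at d6 with BMP2, and those of the interactions from 1 to 2 (BMP2, d3), 2 to 3 (BMP2, d6) and 0 to 1 (time, d6 untreated). The following uncalled line differences changed sign. Under median scaling *Ksr1* was -0.072, *Sufu* -0.023, *Tob2* -0.061 and *Med13* -0.059 at d6 without BMP2, *Sufu* 0.012 at d3 with BMP2, *Tob2* -0.047 and *Crat* -0.014 at d3 without BMP2, and *Crat* 0.054 at d0. Array weights gave *Tob2* -0.023 at d3 without BMP2, *Crat* 0.0011 at d0 and *Galnt7* 0.013 at d6 without BMP2, the offset gave *Tob2* -4.74e-05 at d3 without BMP2, and quantile normalization gave *Crat* 0.0017 at d0. Line differences near 0 changed sign when 1 array was left out, with log2 ranges for *Grb2* -0.028 to 0.059 at d3 BMP2, *Ksr1* -0.033 to 0.18 at d3 untreated, -0.012 to 0.18 at d6 untreated and -0.0093 to 0.19 at d3 BMP2, *Tob2* -0.11 to 0.091 at d3 untreated and -0.14 to 0.032 at d3 BMP2, *Med13* -0.0057 to 0.099 at d6 BMP2, *Crat* -0.12 to 0.061 at d0, -0.076 to 0.11 at d3 untreated, -0.15 to 0.051 at d6 untreated and -0.27 to 0.011 at d6 BMP2, *Galnt7* -0.10 to 0.13 at d6 untreated, *Npnt* 1426561_a_at -0.16 to 0.14 at d3 untreated and *Npnt* 1421429_a_at -0.049 to 0.13 at d0 and -0.46 to 0.036 at d3 untreated. The 3 arrays per group and the high spread of dim probe sets limit what differences could be seen.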
